A study of Drosophila melanogaster with 6 samples.

Results

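The transcripts of the mitochondrial genome were examined in RNA sequencing of brains of Drosophila melanogaster larvae in the third instar. All genes that the deposited table places on the mitochondrial genome were included, which gave 38 of 17737 genes. They comprised 13 mRNAs, 2 rRNAs, 22 tRNAs and the replication origin region, and the RNA classes were taken from the Ensembl annotation. The control group had 3 libraries from larvae with elavC155-Gal4, which drives the yeast activator Gal4 in neurons. The DNMT3L group had 3 libraries from a cross of this driver to flies with w/w on the X chromosome, P(UAS-DNMT3L,w+) over the balancer Cyo, and TM2 over TM6B. Both groups therefore carried the Gal4 driver, and DNMT3L, a mammalian cofactor of DNA methyltransferases without catalytic activity of its own, was to be expressed in neurons. The level of DNMT3L itself was not analysed here, since the genes counted are those of the fly. Whether larvae that inherited the transgene were separated from those that inherited the balancer is not stated in the labels, nor whether libraries came from separate animals, so p-values measure the spread between these libraries. The libraries came from whole brain RNA, in which fewer cells of a type and less RNA per cell cannot be told apart.

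The mitochondrial genome of flies is a compact circle without introns, transcribed from both strands into long precursors in which tRNAs lie between most of the other genes. Excision of the tRNAs releases the mRNAs and rRNAs, and most mature mRNAs then receive a short poly(A) tail. The mRNAs encode core subunits of respiratory complexes I, III and IV and of the ATP synthase, complex V. All other subunits, and the proteins that copy, transcribe and translate the mitochondrial genome, come from nuclear genes. Neurons rely heavily on this machinery for the ATP that drives ion pumping and transmitter release.

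Total counts per library lay between 17928420 and 19251845. The labels name both poly(A) isolation and rRNA removal, without giving the one used in each library. Markers of the brain's own cells were present, with summed levels of 128 to 1603 CPM (counts scaled to a common library total) over 7 neuronal genes, 824 to 1368 CPM over 6 glial genes and 225 to 491 CPM over 5 neuroblast genes. Control 1 had the lowest neuronal sum, at 128 CPM, and the highest sums of muscle (830 CPM over 8 genes), fat body (2037 CPM over 6), cuticle (1051 CPM over 4) and tracheal genes (645 CPM over 3). DNMT3L 1 had the highest neuronal sum, at 1603 CPM, and the lowest sums of muscle (94.2 CPM), fat body (509.9 CPM) and cuticle genes (76.9 CPM). Hemocyte genes summed to 234 to 434 CPM over 5 genes, and germ line and testis genes to 5.47 to 11.8 CPM over 4. No marker was at 0 in every library.

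Reads on mitochondrial genes made up between 1.58% and 4.94% of all counts, and this share varied more among the controls than between the groups. It was 1.58% in control 1, 3.18% in control 2 and 4.94% in control 3. In the DNMT3L libraries it was 2.82%, 2.62% and 2.53%. The DNMT3L values all lay inside the range of the controls, and the means were 3.23% ± 1.68 and 2.66% ± 0.146 (SD, n = 3 per group). Without control 3 the difference of means turned from −0.57 to 0.28 percentage points.

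**Figure D1:**
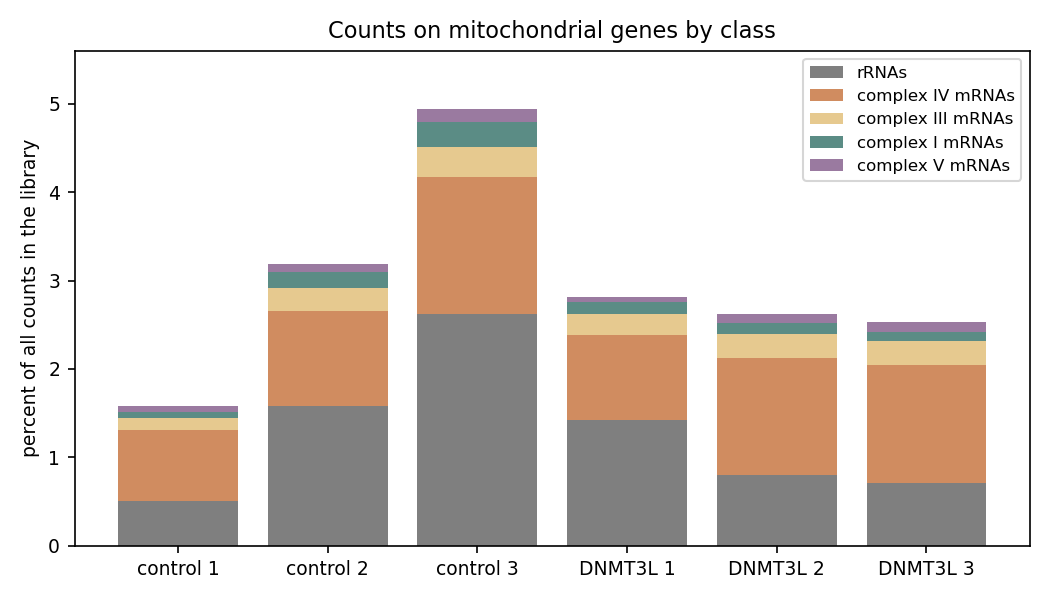
Percent of all counts in each library (y axis) that fell on mitochondrial genes, stacked by class, for 3 control and 3 DNMT3L libraries (x axis). Control 1 had the lowest total, at 1.58%, and control 3 the highest, at 4.94%, and the rRNA part was under 1% in control 1, DNMT3L 2 and DNMT3L 3.

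The share split into an mRNA part and an rRNA part that did not move alike. The mRNAs took 1.07%, 1.60% and 2.31% of all counts in controls 1 to 3 and 1.40%, 1.82% and 1.82% in DNMT3L libraries 1 to 3. The 2 rRNAs took 0.508%, 1.58% and 2.62% in the controls and 1.42%, 0.802% and 0.714% in the DNMT3L libraries. As a part of all mitochondrial counts, the rRNAs reached 49.7% in control 2, 53.1% in control 3 and 50.4% in DNMT3L 1. They were at 32.2% in control 1, 30.6% in DNMT3L 2 and 28.2% in DNMT3L 3. So each group held libraries of both kinds, and the group means, 45.0% ± 11.2 and 36.4% ± 12.2, lay within 1 SD of each other.

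Reads were found on 15 of the 38 genes, namely on every mRNA and both rRNAs. None of the 22 tRNAs, which are 61 to 73 bases long in the table, had a read in any library, nor did the origin region. A count of 0 in a library allows a level of up to 0.156 to 0.167 CPM (3 counts, before scaling, counting error only). The fragments that the labels describe had inserts of about 300 bases, longer than any tRNA and longer than mt:ATPase8 (162 bases) and mt:ND4L (291 bases). In the table mt:ATPase8 shares 7 bases with mt:ATPase6, and mt:ND4L shares 1 base with mt:ND4. How reads over such junctions were counted, and whether strand was used, was not given in the sources used here. Reads of the precursor of one strand, antisense to a gene on the other, could then be counted for that gene.

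Per base of exon, mt:lrRNA, the large rRNA of the mitochondrial ribosome, had the most reads. Its mean was 9616 FPKM, the count scaled by exonic size and library total, over the 6 libraries. mt:CoIII, encoding cytochrome c oxidase subunit III, followed at 6216 FPKM, ahead of mt:CoI (3423 FPKM), mt:CoII (2300.3 FPKM), mt:Cyt-b (2217 FPKM) and mt:ATPase6 (1434 FPKM). mt:ATPase6 held rank 6 in every library. In contrast mt:lrRNA and mt:CoIII changed places, with mt:lrRNA first in control 2, control 3 and DNMT3L 1 and mt:CoIII first in control 1, DNMT3L 2 and DNMT3L 3. mt:CoII and mt:Cyt-b also changed places between libraries, so their order was not fixed. The complex I genes were lower per base, from mt:ND4 (481 FPKM), mt:ND1 (335 FPKM), mt:ND5 (252 FPKM) and mt:ND3 (211 FPKM) down to mt:ND2 (15.9 FPKM). mt:srRNA, the small rRNA, was at 9.15 FPKM, and mt:ND4L (2.64 FPKM), mt:ATPase8 (1.13 FPKM) and mt:ND6 (0.75 FPKM) were close to the floor.

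**Figure D2:**
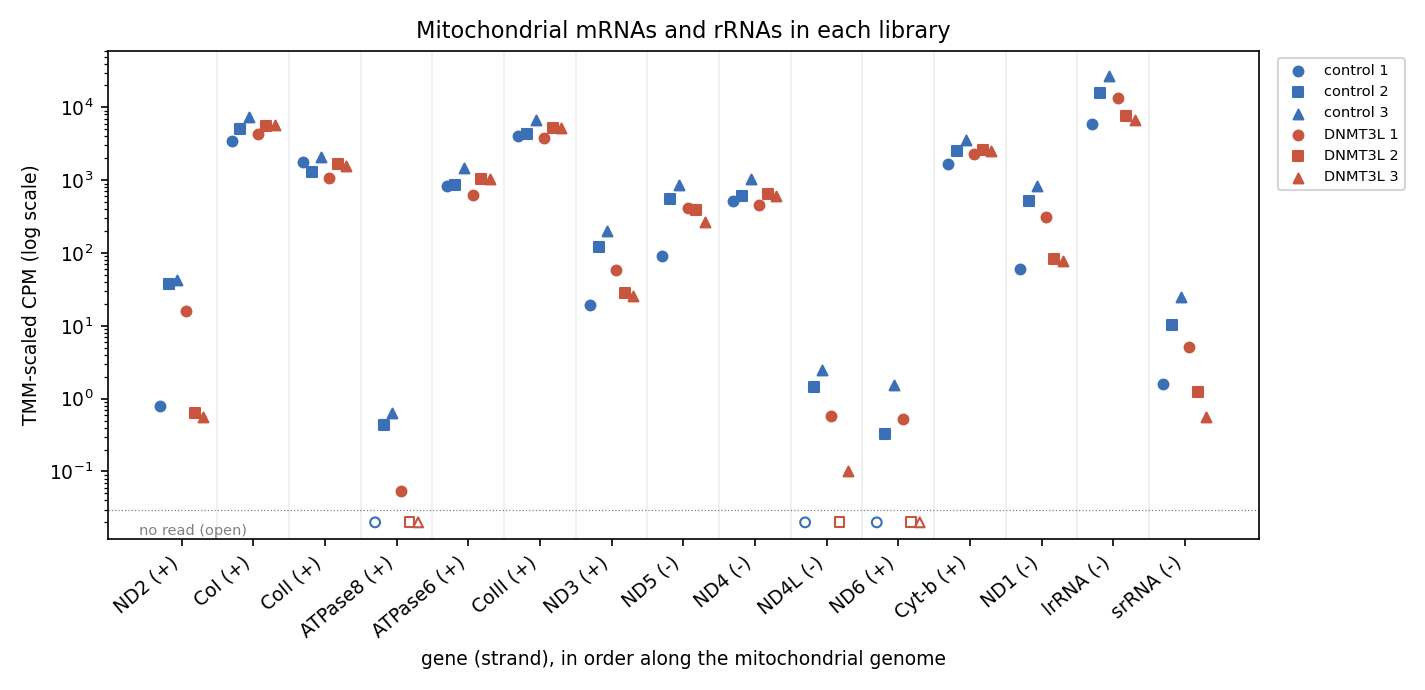
TMM-scaled CPM on a log axis (y) of the 15 mitochondrial mRNAs and rRNAs in order along the genome (x, strand in brackets), with 1 point per library and open points for libraries without a read. Points of mt:CoI, mt:CoII, mt:CoIII, mt:ATPase6, mt:ND4 and mt:Cyt-b lie close together, whereas those of mt:ND2 run from 0.556 to 43.1 CPM, with high and low libraries in both groups.

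Complex IV is cytochrome c oxidase, which passes electrons to oxygen, and its core is formed by the products of mt:CoI, mt:CoII and mt:CoIII. mt:CoI lies on the plus strand at 1474 to 3009 of the mitochondrial genome in the BDGP6 build. It was at 3444, 5010.2 and 7336 CPM in controls 1 to 3 and at 4297, 5570 and 5683 CPM in DNMT3L libraries 1 to 3. The DNMT3L values lay inside the control range, and the log2 fold change was −0.02 ± 0.30 (SE; edgeR adjusted p = 0.966). mt:CoII (3083 to 3767) was at 1805, 1280 and 2096 CPM in the controls and 1063, 1690 and 1589 CPM in the DNMT3L libraries. Its groups overlapped, with the lowest value in DNMT3L 1, and the log2 fold change was −0.25 ± 0.26 (edgeR adjusted p = 0.536). mt:CoIII (4736 to 5524) was at 4106, 4325 and 6705 CPM against 3830, 5268 and 5149 CPM. Only control 3 stood above all 3 DNMT3L libraries, and the log2 fold change was −0.09 ± 0.25 (edgeR adjusted p = 0.825). Relative to mt:CoI, mt:CoII per base was at 118% in control 1 and at 55.5% to 68.0% in the other libraries.

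The ATP synthase, complex V, takes subunits a and 8 of its membrane part from mt:ATPase6 and mt:ATPase8. mt:ATPase6 (4062 to 4736, plus strand) was at 822, 853 and 1452 CPM in the controls and 621, 1025 and 1040 CPM in the DNMT3L libraries. The groups overlapped, and the log2 fold change was −0.22 ± 0.31 (edgeR adjusted p = 0.65). Its level followed that of its neighbour mt:CoIII, at 18.9% to 25.3% of it per base in all 6 libraries. mt:ATPase8 (3907 to 4068) had 0, 8 and 11 reads in the controls and 1, 0 and 0 in the DNMT3L libraries, too few to be tested.

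Cytochrome b, the only mitochondrially encoded subunit of complex III, was likewise even. mt:Cyt-b (10499 to 11635, plus strand) was at 1652, 2497 and 3530 CPM in the controls and 2278, 2584 and 2498 CPM in the DNMT3L libraries. The 3 DNMT3L values lay between control 1 and control 3, and the log2 fold change was −0.06 ± 0.28 (edgeR adjusted p = 0.893). Relative to mt:CoI it stayed between 59.4% and 71.6% per base in all libraries, although the genes lie far apart on the genome.

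Complex I, NADH dehydrogenase, is where electrons from NADH enter the chain, and it has 7 mitochondrially encoded subunits. They differed in spread, and mt:ND4 varied no more than the genes of the other complexes. mt:ND4 (8206 to 9545, minus strand) was at 518, 602 and 1040 CPM in the controls and 453, 653 and 607 CPM in the DNMT3L libraries. Its log2 fold change was −0.33 ± 0.30 (edgeR adjusted p = 0.489), and only control 3 lay above all DNMT3L libraries. mt:ND5 (6409 to 8125, minus strand) was at 90.0, 554 and 861 CPM in the controls and 410.2, 390.3 and 269 CPM in the DNMT3L libraries. Here control 1 stood far below the other libraries, and mt:ND5 per base was 13.5% of mt:ND4 in control 1 against 34.5% to 71.7% elsewhere. The log2 fold change was −0.49 ± 0.70 (edgeR adjusted p = 0.654).

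For mt:ND1 and mt:ND3 control 1 was the lowest of all libraries, next to DNMT3L 3 and DNMT3L 2. mt:ND1 (11721 to 12659, minus strand) was at 60.1, 523 and 839 CPM in controls 1 to 3. It was at 315, 82.2 and 77.2 CPM in DNMT3L libraries 1 to 3. Control 1, DNMT3L 2 and DNMT3L 3 thus lay close together, and DNMT3L 1 was closest to control 2. The span within the controls was 14.0-fold, and the log2 fold change between groups was −1.58 ± 0.96 (edgeR adjusted p = 0.365). mt:ND3 (5608 to 5961, plus strand) was at 19.3, 120 and 200.4 CPM in the controls and 58.1, 28.2 and 25.7 CPM in the DNMT3L libraries. The order of the 6 libraries from low to high was the same as for mt:ND1, although the genes lie on opposite strands. The log2 fold change of mt:ND3 was −1.60 ± 0.78 (edgeR adjusted p = 0.334).

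mt:ND2 (240 to 1265, plus strand) had the widest span of the mitochondrial genes with a read in every library. It had 13, 689 and 758 reads in controls 1 to 3 and 297, 12 and 11 reads in DNMT3L libraries 1 to 3. In CPM these were 0.79, 37.4 and 43.1 against 15.8, 0.635 and 0.556. The 13 reads of control 1 have a 95% exact Poisson interval of 6.92 to 22.2 reads, and the 297 reads of DNMT3L 1 one of 264 to 333, for counting error only. Each group held high and low libraries, 54.6-fold apart within the controls and 28.4-fold apart within the DNMT3L libraries. The log2 fold change was −2.26 ± 1.62 (edgeR adjusted p = 0.413). mt:CoI is the next mRNA after mt:ND2 on the same strand, and it spanned 2.13-fold and 1.32-fold. Per base, mt:ND2 was at 0.0345%, 1.12% and 0.88% of mt:CoI in the controls and at 0.551%, 0.017% and 0.0146% in the DNMT3L libraries.

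mt:ND4L (9545 to 9835, minus strand) and mt:ND6 (9971 to 10495, plus strand) had few reads, most of them in control 2, control 3 and DNMT3L 1. mt:ND4L had 0, 27 and 44 reads in the controls and 11, 0 and 2 in the DNMT3L libraries. It passed the filter on low counts through control 2, control 3 and DNMT3L 1 alone, and had a fitted log2 fold change of −2.51 ± 1.46 (edgeR adjusted p = 0.357). mt:ND6 had 0, 6 and 27 reads against 10, 0 and 0 and was not tested. Its neighbour on the same strand, mt:Cyt-b, had at least 27166 reads in every library.

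**Figure D3:**
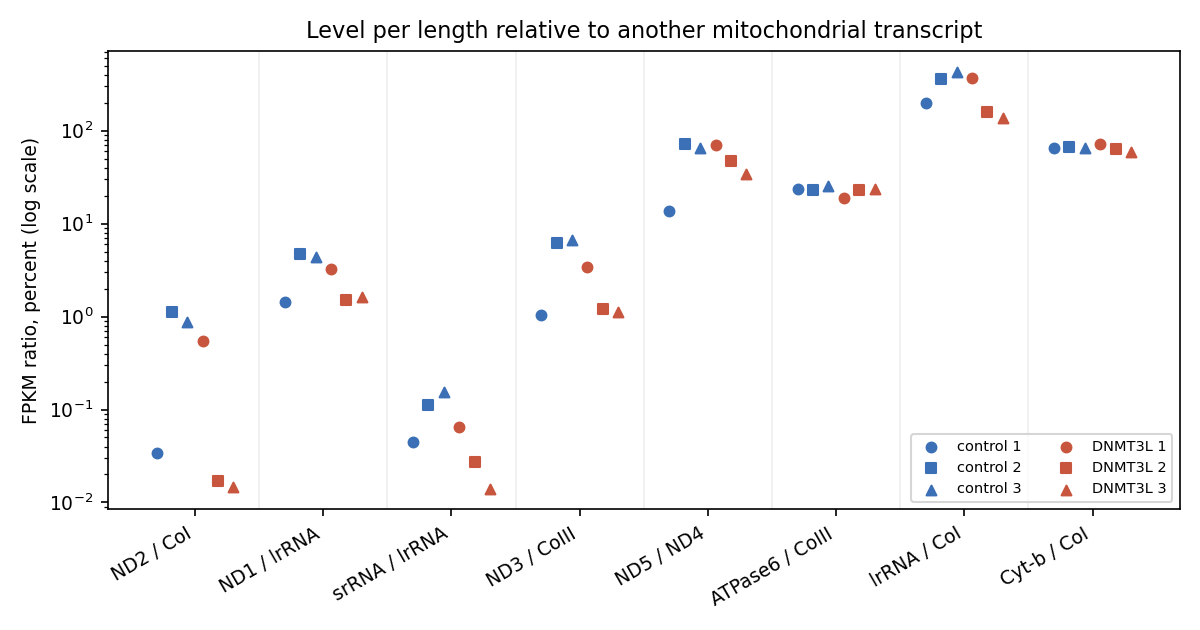
FPKM of 1 mitochondrial transcript as a percent of another, on a log axis (y), for 8 pairs (x) with 1 point per library. The ratios of mt:ATPase6 to mt:CoIII and of mt:Cyt-b to mt:CoI are nearly level across the 6 libraries, whereas that of mt:ND2 to mt:CoI spans 76.5-fold and is low in control 1, DNMT3L 2 and DNMT3L 3.

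The rRNAs form the cores of the mitochondrial ribosome and lie side by side on the minus strand. mt:lrRNA (12734 to 14058) was at 5942, 15588 and 27274 CPM in the controls and 13572, 7608 and 6648 CPM in the DNMT3L libraries. The low libraries were again control 1, DNMT3L 2 and DNMT3L 3, and the log2 fold change was −0.81 ± 0.56 (edgeR adjusted p = 0.401). It was −0.22 without control 3 and −1.21 without control 1. mt:srRNA (14131 to 14916) had 26, 192 and 438 reads in the controls and 97, 23 and 11 in the DNMT3L libraries. In CPM these were 1.58, 10.4 and 24.9 against 5.16, 1.22 and 0.556, which is −2.41 ± 1.13 on the log2 scale (edgeR adjusted p = 0.333). The labels name both poly(A) isolation and rRNA removal, whose part in the read levels of the rRNAs was not tested. In reads per base, the small rRNA stood at 0.0141% to 0.154% of the large one. Likewise mt:ND1, next to mt:lrRNA on the same strand, was at 1.43%, 4.73% and 4.34% of mt:lrRNA per base in the controls and at 3.28%, 1.52% and 1.64% in the DNMT3L libraries.

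This order of libraries did not follow the genotype. For mt:ND1, mt:ND2, mt:ND3, mt:ND5, mt:ND4L, mt:ND6, mt:ATPase8, mt:lrRNA and mt:srRNA the 3 lowest libraries were control 1, DNMT3L 2 and DNMT3L 3, which was read from their values and was not tested. Salivary gland glue genes, markers of another larval tissue, had their highest sums over 5 genes in those same libraries. They summed to 55.5 CPM in control 1, 93.6 CPM in DNMT3L 2 and 192 CPM in DNMT3L 3, and to 12.7 to 24.4 CPM in the other libraries. Of these genes Sgs4 departed from this order, with 2.92 CPM in control 1 and 4.10 CPM in control 3. Sums of the other marker sets did not follow it, such as muscle genes at 830, 402.5 and 591 CPM in the controls and 94.2, 336 and 289 CPM in the DNMT3L libraries. The part of salivary gland RNA in this order was not tested. Over 9482 nuclear genes tested, the highest control was a median of 1.63-fold above the lowest, and 1.47% of the genes spanned over 10-fold. Of the 13 mitochondrial genes tested, 5 spanned over 10-fold in the controls, mt:ND1, mt:ND2, mt:ND3, mt:ND4L and mt:srRNA, the fourth of them with no read in control 1. In the DNMT3L libraries 2 of the 13 spanned over 10-fold, mt:ND2 and mt:ND4L, beside 1.25% of the nuclear genes and a nuclear median of 1.39-fold.

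Set against controls, the DNMT3L libraries address whether mitochondrial transcripts differ between the driver alone and its cross to UAS-DNMT3L. No mitochondrial gene passed edgeR's quasi-likelihood test (Benjamini-Hochberg adjustment across the 9495 tested genes), with adjusted p between 0.333 and 0.966. Of the 13 mitochondrial genes tested, 0 were called and 0 had an unadjusted p under 0.05, against 0.0% and 15.0% of all genes tested. DESeq2 likewise called none of the 13, against 2.44% of the genes to which it gave an adjusted p. The groups overlapped for all 13, while over all genes tested they did not overlap for 28.1%. All 13 log2 fold changes were below 0, against 52.3% of all genes tested. Every one of these genes had its highest level in control 3. Marker sums also differed between the groups, at 1082 to 2037 CPM in controls and 509.9 to 783 CPM in DNMT3L libraries for fat body and at 128 to 675 CPM and 728 to 1603 CPM for neurons. Of the 6 fat body genes, 5 had a log2 fold change below 0 and 1 above 0. The exception was Fbp2, whose mean was 0.931 ± 0.527 CPM in controls against 20.4 ± 3.75 CPM with DNMT3L (edgeR adjusted p = 0.0794). Sums of muscle, trachea (519 to 645 against 254 to 399.9 CPM) and hemocyte genes were also lower in every DNMT3L library than in any control. Of the 8 muscle genes, 7 had a log2 fold change below 0 and 1 above 0. The exception was bt, at 6.13 to 8.14 CPM in controls against 9.05 to 10.6 CPM with DNMT3L. Sums of neuroblast (225 to 399 against 435 to 491 CPM) and germ line genes were higher in every DNMT3L library than in any control. No marker gene was called by edgeR, and their part in the comparison was not tested. Without control 3 the count of mitochondrial genes below 0 was 7 of 13, and with the trend of gene length removed from each library it was 8 of 13.

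**Figure D4:**
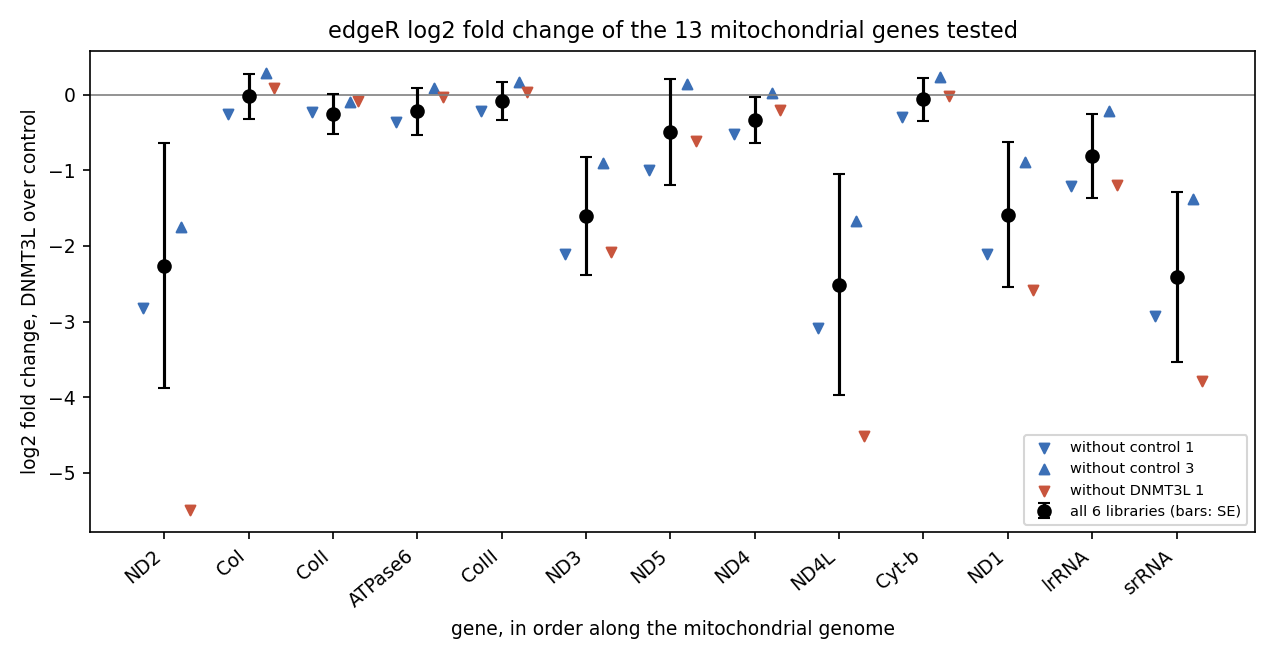
edgeR log2 fold change of DNMT3L over control (y axis) for the 13 mitochondrial genes tested, in order along the genome (x axis). Black points with SE bars use all 6 libraries and coloured points leave out control 1, control 3 or DNMT3L 1. Without control 3 the values of mt:CoI, mt:ATPase6, mt:CoIII, mt:ND5, mt:ND4 and mt:Cyt-b lie above 0, and without DNMT3L 1 that of mt:ND2 is at −5.50.

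The median log2 fold change of the 11 mRNAs tested was −0.33, beside −0.03 over all genes tested, and without control 3 it was 0.03. It was −0.22 for the 7 plus strand mRNAs tested and −1.04 for the 4 on the minus strand. All 4 on the minus strand encode complex I subunits, so these medians do not separate strand from complex. The plus strand complex I genes mt:ND2 and mt:ND3 were at −2.26 and −1.60. Plus strand genes supplied 94.7%, 89.4% and 88.6% of the mitochondrial mRNA counts in controls 1 to 3 and 91.2%, 93.5% and 94.4% in DNMT3L libraries 1 to 3. In mRNA counts the strands were thus most uneven in control 1, DNMT3L 2 and DNMT3L 3, and the group means, 90.9% ± 3.29 and 93.0% ± 1.66, differed by less than the SD of the controls. With the rRNAs included, plus strand genes held 64.2%, 45.0% and 41.6% of all mitochondrial counts in the controls and 45.2%, 64.9% and 67.8% in the DNMT3L libraries. Whether strand was used in counting was not given. By complex, the median was −1.59 for the 6 complex I genes tested and −0.09 for the 3 complex IV genes. Without control 3 these medians were 0.096 for the plus strand, −0.43 for the minus strand, −0.89 for complex I and 0.17 for complex IV. Complex I genes took 5.50%, 11.6% and 12.4% of the mitochondrial mRNA counts in the controls and 9.40%, 6.68% and 5.78% in the DNMT3L libraries, so that both groups again held high and low libraries.

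Leaving out libraries changed the outcome for 3 genes. Without control 1 and DNMT3L 1 together, which left 2 libraries a group, edgeR called mt:ND2 (log2 fold change −6.06, adjusted p = 0.000941), mt:ND1 (−3.10, adjusted p = 0.025) and mt:ND3 (−2.57, adjusted p = 0.0288) as lower in DNMT3L. The same fit called 16 of all genes that it tested, whose number is not given here. Control 1 was the lowest control for mt:ND2, mt:ND1 and mt:ND3, and DNMT3L 1 the highest DNMT3L library. Leaving out both therefore widened the group difference by the choice of libraries itself, and no conclusion is drawn from these calls. Control 1 lay close to DNMT3L 2 and DNMT3L 3 for mt:ND1 and mt:ND2, and DNMT3L 1 lay nearer to controls 2 and 3 than to DNMT3L 2 and 3 on the log2 scale for both, whereas for mt:ND3 it lay midway between DNMT3L 2 and control 2. These values set both libraries apart from their own groups, and each group difference given here takes the labels as right. Neuronal marker sums were lowest of all 6 in control 1, at 128 CPM, and highest in DNMT3L 1, at 1603 CPM. Salivary gland sums were 55.5 CPM in control 1, beside 93.6 and 192 CPM in DNMT3L 2 and 3. They were 24.4 CPM in DNMT3L 1, beside 12.7 and 24.0 CPM in controls 2 and 3. Other markers placed control 1 and DNMT3L 1 with their own groups. The fat body gene Fbp2 was at 1.09, 1.36 and 0.34 CPM in controls 1 to 3. It was at 17.1, 19.7 and 24.5 CPM in DNMT3L libraries 1 to 3. Tracheal sums were 645, 519 and 600 CPM in the controls and 288, 399.9 and 254 CPM in the DNMT3L libraries. Whether the labels are right was not tested. Without control 3 alone, the log2 fold change was −0.88 for mt:ND1 and −0.90 for mt:ND3. Without DNMT3L 1 alone, the log2 fold change of mt:ND2 was −5.50 and that of mt:srRNA −3.79, and no mitochondrial gene was called.

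Mitochondrial and nuclear subunits of the same complexes had different patterns across libraries. Summed over complexes, mitochondrial mRNAs were at 12517, 15803 and 24107 CPM in the controls and 13343, 17292 and 16938 CPM in the DNMT3L libraries, lowest in control 1. The 84 nuclear subunit genes of complexes I to V summed to 24968, 14554 and 17534 CPM in the controls and 11839, 15815 and 16205 CPM in the DNMT3L libraries, highest in control 1. Of the 66 nuclear subunit genes tested, 62 were highest in control 1 and all 66 were lowest in DNMT3L 1, as were the muscle and fat body marker sums, whose part was not tested. Their median log2 fold change was −0.48, with 65 of 66 below 0, against 52.3% of all genes tested. None was called by edgeR, against 0.0%, and in 3 of 66 the groups did not overlap, against 28.1%. For complex I, mitochondrial genes gave 10.1% of the summed CPM of mitochondrial and nuclear subunits in control 1, 35.3% in control 2 and 42.2% in control 3. In the DNMT3L libraries they gave 31.8%, 24.3% and 20.4%. For complex IV they gave 68.6% in control 1 and 83.0% to 85.4% in the other libraries. Medians of the nuclear genes by complex were −0.48 for complex I (32 genes tested), −0.50 for complex II (4), −0.56 for complex III (8), −0.48 for complex IV (9) and −0.50 for complex V (13).

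**Figure D5:**
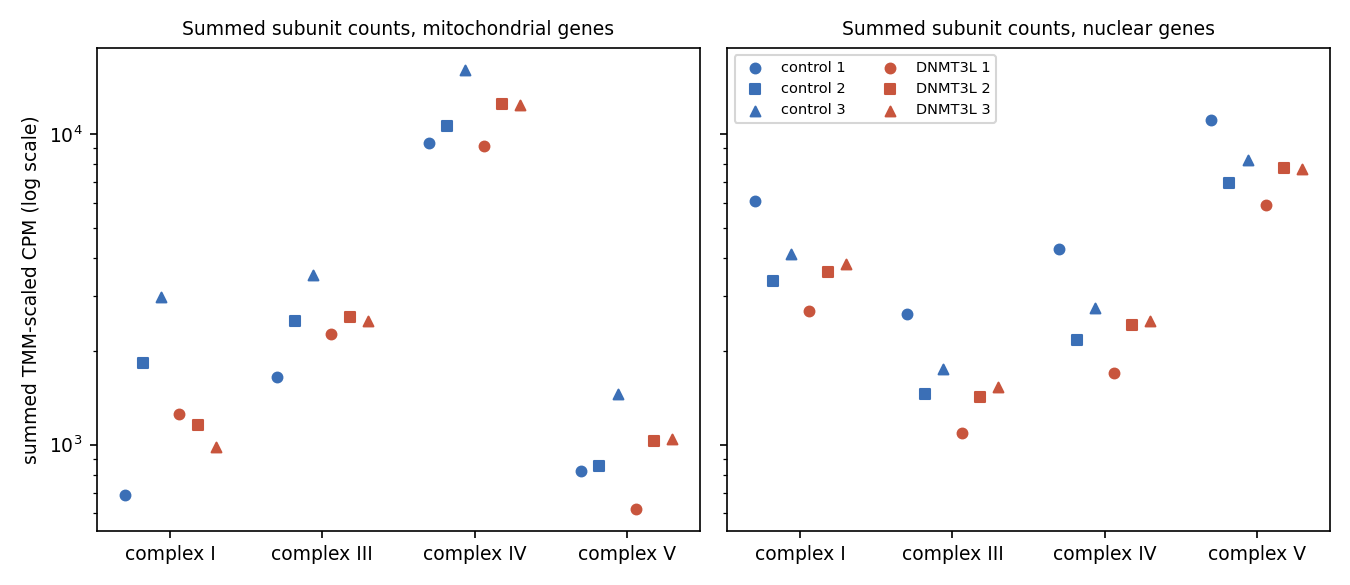
Summed TMM-scaled CPM on a log axis (y) of the mitochondrial genes (left) and of the nuclear genes (right) for subunits of complexes I, III, IV and V (x), with 1 point per library. Control 1 is the highest library for the nuclear genes of each complex and the lowest for the mitochondrial genes of complexes I and III.

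The nuclear genes that maintain and express the mitochondrial genome were examined as 6 lists. Of 66 symbols, 62 matched a gene in the table and 59 were tested, with 21 log2 fold changes above and 38 below 0. edgeR called none of them, as of all genes tested (0.0%). An unadjusted p under 0.05 was found for 4 of 59, against 15.0% of all genes tested, and groups that did not overlap for 14 of 59, against 28.1%. Values below are mean CPM ± SD in controls and DNMT3L libraries (n = 3 each).

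Of 7 tested genes for replication and packaging of mitochondrial DNA, 5 were below 0 with a median of −0.15. TFAM, which packages mitochondrial DNA and acts in transcription, was at 134 ± 35.6 and 106 ± 21.8 CPM. The DNA polymerase gene tam was at 16.5 ± 1.29 and 14.0 ± 0.748 CPM, the single-strand binding protein gene mtSSB at 68.1 ± 26.2 and 48.0 ± 12.6 CPM, and the nuclease gene Fen1 at 74.6 ± 21.9 and 67.5 ± 15.4 CPM. Of 6 transcription genes tested, 4 were below 0 with a median of −0.21. The mitochondrial RNA polymerase gene, mtRNApol in the table, was at 24.8 ± 3.12 and 30.8 ± 2.01 CPM, a difference of 0.31 ± 0.16 on the log2 scale (edgeR adjusted p = 0.334) with groups that did not overlap. mRpL12, a mitochondrial ribosomal protein gene, was at 108 ± 29.9 and 79.9 ± 9.85 CPM and mTerf5, of the termination factor family, at 31.9 ± 4.34 and 26.7 ± 2.87 CPM.

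Of 11 genes tested for processing and turnover of mitochondrial RNA, 8 were below 0 with a median of −0.10. This list held 2 of the 4 genes with an unadjusted p under 0.05, scu and mldr. Together with rswl they encode mitochondrial RNase P, which cuts the 5′ ends of tRNAs from the precursors. scu was at 362 ± 130 and 203 ± 41.7 CPM, a difference of −0.83 ± 0.29 on the log2 scale (edgeR adjusted p = 0.332). mldr, the nuclease subunit, was at 26.2 ± 6.77 and 18.0 ± 0.711 CPM, with −0.54 ± 0.21 (edgeR adjusted p = 0.332). rswl, chosen for naming after its values were seen, was at 31.8 ± 5.70 and 31.3 ± 5.43 CPM, with −0.02 ± 0.21 (edgeR adjusted p = 0.95). bsf, a relative of the mammalian mRNA-stabilising protein LRPPRC, was at 153 ± 2.31 and 142 ± 6.82 CPM. The part of these genes in the levels of mitochondrial transcripts was not tested.

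The mitochondrial aminoacyl-tRNA synthetase genes, which charge the tRNAs, were above 0 in 7 of 15 and had a median of 0.00. AspRS-m was at 132 ± 31.6 and 172 ± 32.0 CPM, PheRS-m at 46.3 ± 6.89 and 44.9 ± 5.08 CPM, TyrRS-m at 27.0 ± 8.06 and 19.2 ± 4.12 CPM and AsnRS-m at 7.01 ± 3.09 and 10.8 ± 1.41 CPM. All 7 translation factor genes tested were below 0 with a median of −0.13 and none called. The elongation factor genes mEFTu1, mEFTs and mEFTu2 were at 251 ± 59.4 and 185 ± 32.4 CPM, 128 ± 29.6 and 95.5 ± 7.65 CPM, and 46.9 ± 12.9 and 33.9 ± 4.06 CPM. Quality control and biogenesis genes had 7 of 13 above 0 and a median of 0.01. The chaperonin gene Hsp60A was at 649.99 ± 100.2 and 439 ± 64.9 CPM, with a log2 fold change of −0.57 ± 0.19, and srl, the fly relative of the coactivator PGC-1, at 66.6 ± 12.8 and 92.9 ± 12.3 CPM, with 0.48 ± 0.19 (edgeR adjusted p = 0.332 for each). Hsc70-5, the mitochondrial Hsp70, was at 254 ± 12.2 and 242 ± 26.2 CPM.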

How the data were processed

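RNA was sequenced from 3 control and 3 DNMT3L brain samples. The deposited table gives whole-number read counts per gene, and per the file headers also FPKM and exonic sizes. FPKM recomputed from the counts matched the deposited FPKM for 100% of values in each library (tolerance 0.01). HISAT2 2.0.1 and HTSeq 0.6.1 were among the authors' tools, beside DESeq2, cutadapt 1.9.1 and bcl2fastq 2.17.1.14, and dm6 and BDGP6 were the builds named, per the submitters' processing notes. How each was set was not given in the sources used here. Coordinates are those of the table, and 30 of 38 are identical in Ensembl release 115.

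Counts were tested with edgeR 4.0.16 in R 4.3.3 (filterByExpr, TMM scaling, glmQLFit and glmQLFTest, two-sided, Benjamini-Hochberg adjustment over 9495 genes, threshold 0.05). This step was also run on counts simulated independently for each gene, which did not copy patterns shared by many genes within a library. The SE was the log2 fold change divided by the square root of F. CPM are TMM-scaled, and the common biological coefficient of variation was 31.5%. Alternatives were DESeq2 1.42.0, RLE factors, nuclear library sizes, no filter, a replicate block, libraries left out, removal of each library's loess trend on gene length (span 0.5), and limma 3.58.1 on log2(FPKM + 1) or + 0.1. Sums, shares and medians over the mitochondrial genes were described without a test. Figures used matplotlib 3.10.9.

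The genes and lists were chosen with earlier results of these data known. The text names every mitochondrial mRNA and rRNA, and from each list the 2 genes with the highest mean and the 2 with the lowest p. No genome sequence was used here.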

Additional observations from a re-analysis of the deposited data

How the results depend on the processing

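Each of the 13 tested genes was refitted under 16 alternatives. Of 208 values, 178 kept their direction and their side of the threshold, 27 changed sign and 3 passed the threshold. mt:ND2, mt:ND3, mt:ND4L, mt:ND1, mt:lrRNA and mt:srRNA were below 0 in every fit that gave them a value. No cause of a changed value was tested. Over all genes tested, edgeR called 0, and it called 2 with RLE factors, 6 without the filter, 13 with the length trend removed and 16 without both libraries numbered 1. DESeq2 called 260, and limma called 12 on log2(FPKM + 1), 10 on log2(FPKM + 0.1) and 12 on log2(FPKM + 1) without the filter. Without both libraries numbered 1, 3 mitochondrial genes were called (mt:ND2 −6.06, mt:ND1 −3.10, mt:ND3 −2.57), and the plus strand share differed by 4.94 percentage points, against 2.12. That setting left out the lowest control and the highest DNMT3L library for each of these 3 genes. With the length trend removed, 8 of 13 genes were below 0, and mt:CoI was at 0.17, mt:CoII at 0.12, mt:ATPase6 at 0.11, mt:CoIII at 0.25 and mt:Cyt-b at 0.21. With limma on FPKM, mt:CoI was at 0.20 to 0.21 (0.205), mt:CoIII at 0.105, mt:ND5 at 0.165 to 0.171 and mt:Cyt-b at 0.175 to 0.176. Leaving out 1 library at a time, 7 to 13 genes were below 0, and ranges reached from −0.25 to 0.29 for mt:CoI, −0.37 to 0.10 for mt:ATPase6, −0.22 to 0.17 for mt:CoIII, −0.99 to 0.15 for mt:ND5, −0.52 to 0.027 for mt:ND4 and for the mRNA median, and −0.30 to 0.24 for mt:Cyt-b. The share of all counts then differed by −1.40 to 0.28 percentage points and the plus strand share by 0.99 to 4.01. With the replicate block, edgeR called 0 genes, mt:CoI was at 0.035 and mt:Cyt-b at 0.0053. Whether libraries with the same number belong together was not given in the sources used here. Their deviations from the group means had correlations of −0.664, −0.542 and −0.181, and pairs with unlike numbers had −0.34 to 0.691. Deviations within a group sum to 0, so these correlations cannot decide it. Genes with few reads (mt:ATPase8, mt:ND6, mt:ND4L) are limited by their low counts. Their neighbours mt:ATPase6, mt:Cyt-b and mt:ND4 had at least 11665, 27166 and 8519 reads in every library. The part of read assignment in the low counts was not tested.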
